A study of Mus musculus with 4 samples.

Results

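The granins and the enzymes that cut and trim prohormones were followed through 4 culture stages of mouse cells labelled as primary hepatocytes. These cultures were being directed toward insulin-producing cells. The group comprised 10 genes, namely Chga, Chgb, Scg2, Scg3, Scg5, Vgf, Pcsk1, Pcsk2, Pcsk1n and Cpe, and its members were found by gene name among the 30138 entries of the count table. All 10 were listed, and 6 of them (Vgf, Chga, Scg2, Scg5, Pcsk1n and Cpe) reached 1 CPM (read counts scaled to library size) in at least 1 library, as did 15222 entries of the table in all. Every stage was a single library of total RNA from mouse liver cells, so no test between stages was possible, no difference could be checked in replicates, and a stage cannot be told apart from its culture or its library. S0 was the serum-free starting medium with knockout serum, the supplements B-27 and N-2, together with b-mercaptoethanol, L-glutamine, non-essential amino acids, antibiotics and the growth factors bFGF and EGF at 20 ng/ml each. S1 followed exposure to the DNA methylation inhibitor 5-azacytidine (labelled 5 mM, 48 h) and then to the histone deacetylase inhibitor trichostatin A (100 nM, 24 h). S2 followed 7 days of retinoic acid (labelled 2 mM) with an insulin, transferrin and selenium supplement, and S3 followed 7 days of nicotinamide (10 mM) with both growth factors withdrawn. Both doses marked as labelled are unusually high, so their unit is in doubt. Since the steps were given in sequence, cells of S2 and S3 had also passed through the earlier ones. The strain, sex and age of the mice, and the number of mice or wells behind a library, are not given in the labels.

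Granins are acidic proteins of the dense-core secretory granules of endocrine cells and neurons, where they take part in granule formation and in the packing of hormones, and several are themselves cut into peptides. In these granules the convertases encoded by Pcsk1 and Pcsk2 cut prohormones behind pairs of basic residues, and carboxypeptidase E, encoded by Cpe, then removes the basic residues left at the cut ends. In pancreatic beta cells this sequence turns proinsulin into insulin and its connecting peptide. Hepatocytes, in contrast, release plasma proteins through the constitutive route, in which furin is a main convertase.

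The promoters of the members were compared as a description of their sequence. RefSeq (build GRCm38.p6) held a promoter window, covering 250 bases before to 50 bases after the annotated start, for 8 of the 10 members, with Vgf and Cpe as the remaining members. The full cyclic AMP response element, TGACGTCA, a palindrome, was found in the windows of Chgb (bases -72 to -65, counted from the start at +1), Scg2 (-68 to -61) and Pcsk1 (-78 to -71). That is 3 of 8 members, against 1.79% of 32851 promoter windows of the mouse genome. Its core, TGACG on either strand, which every full element also holds, was present in 7 of 8 members and in 20.8% of all windows, and Pcsk1n was the member without it. The letters TATAAA were found in the Chga window alone, against 13.6% of all windows. They lay at bases 6 to 11, after the annotated start, so they are given as a match of letters and not as a TATA box. The GC box, GGGCGG on either strand, was present in 6 of 8 members and in 35.7% of all windows. The RE1 element, to which the neuronal gene repressor REST binds, was matched in 0 of 8 members and in 0.0639% of all windows. The member windows held 9 (Scg5) to 36 (Pcsk2) CpG dinucleotides, the bases that DNA methylation acts on, against a median of 7.0 in all windows, and their GC content was 49.3% (Pcsk1) to 76.3% (Pcsk2), against a median of 52.7%. TGACG, TGACGTCA and GGGCGG each contain a CpG, and the shares over all windows were not matched for CpG content. The motif shares therefore cannot be told apart from the CpG content of the member windows. The windows of 5 members are printed here, 5′ to 3′, with TGACG, TGACGTCA and TATAAA matches in capitals, since they set the members with the full element beside Chga, which has its core alone, and Pcsk1n, which has neither. The windows lie at chr2:132781392-132781691 (+ strand), chr1:79439977-79440276 (- strand), chr13:75089607-75089906 (+ strand), chr12:102554691-102554990 (+ strand) and chrX:7919572-7919871 (+ strand), in the order printed.
Chgb: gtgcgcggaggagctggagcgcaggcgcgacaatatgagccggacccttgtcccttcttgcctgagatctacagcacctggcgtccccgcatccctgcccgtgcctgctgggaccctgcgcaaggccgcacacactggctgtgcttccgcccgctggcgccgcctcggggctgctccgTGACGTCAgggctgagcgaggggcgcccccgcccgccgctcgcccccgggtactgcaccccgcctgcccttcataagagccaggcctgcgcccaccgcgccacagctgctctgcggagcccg
Scg2: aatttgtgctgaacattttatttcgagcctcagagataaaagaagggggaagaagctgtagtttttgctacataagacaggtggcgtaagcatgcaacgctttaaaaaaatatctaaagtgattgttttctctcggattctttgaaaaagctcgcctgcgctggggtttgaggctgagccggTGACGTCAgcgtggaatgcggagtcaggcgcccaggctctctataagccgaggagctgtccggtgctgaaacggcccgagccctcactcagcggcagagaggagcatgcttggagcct
Pcsk1: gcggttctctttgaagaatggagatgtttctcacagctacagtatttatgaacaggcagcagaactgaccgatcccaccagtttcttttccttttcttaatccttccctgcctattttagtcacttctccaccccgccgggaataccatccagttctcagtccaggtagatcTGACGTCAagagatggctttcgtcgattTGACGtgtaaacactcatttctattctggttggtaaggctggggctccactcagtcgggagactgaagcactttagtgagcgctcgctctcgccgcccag
Chga: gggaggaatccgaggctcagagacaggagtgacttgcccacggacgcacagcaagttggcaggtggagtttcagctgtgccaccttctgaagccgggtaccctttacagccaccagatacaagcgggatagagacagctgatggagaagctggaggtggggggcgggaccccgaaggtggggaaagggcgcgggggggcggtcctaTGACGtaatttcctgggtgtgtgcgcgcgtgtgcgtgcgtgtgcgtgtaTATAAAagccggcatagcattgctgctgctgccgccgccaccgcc
Pcsk1n: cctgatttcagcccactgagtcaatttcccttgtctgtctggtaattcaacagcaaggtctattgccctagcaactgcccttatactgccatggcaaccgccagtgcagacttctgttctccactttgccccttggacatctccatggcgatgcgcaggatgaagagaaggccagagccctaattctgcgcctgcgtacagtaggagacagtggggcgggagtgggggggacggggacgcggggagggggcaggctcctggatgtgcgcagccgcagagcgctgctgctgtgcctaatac
A match describes these letters and was not tested as a binding site. Per gene length, the 3 members with the full element reached at most 0.178 RPKM (Scg2 in S1). With the core alone, Scg5 reached 2.9 RPKM and Chga 1.85 RPKM, both in S1. Scg3 and Pcsk2, also with the core alone, reached at most 0.0539 RPKM (S3) and 0.0259 RPKM (S1). Pcsk1n, without the core, reached 0.733 RPKM in S3. A link between these elements and the levels was not tested.

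The libraries held 22944047 (S2) to 27602967 (S0) gene reads, and a gene with 0 reads lay below the level of 3 reads, which is 0.103 to 0.137 CPM. A fold against 0 reads is set against that floor and written as "at least", which leaves out the counting error of the other library. A call used the bound that includes it. Intervals are 95% and cover counting error only. The labelled cell type was checked against 13 hepatocyte markers. Their summed level was 3656 CPM in S0, 4067 CPM in S1, 12320 CPM in S2 and 6394 CPM in S3, with Tat at 0 reads throughout. Apob supplied most of the S0 sum (84172 reads, against 6245 of Alb). In S1 against S0, 5 of 9 measured markers were called higher and 2 lower (12.6% and 13.1% of all genes). Alb was 7.38-fold higher (7.18 to 7.57) and Apob 2.19-fold lower (2.16 to 2.22), both picked with their values in view. The sum thus hides changes in both directions. Macrophage markers summed to 13925 CPM in S0, 3359 CPM in S1, 713 CPM in S2 and 695 CPM in S3. Stellate cell and fibroblast markers summed to 5718, 1626, 1746 and 3235 CPM in S0 to S3, and mesothelial markers to 984, 1439, 2204 and 2086 CPM. Biliary markers summed to 1577, 1573, 588 and 609 CPM in the same order. Of 11 islet markers, 8 were at 0 reads in each of S0, S1 and S2 and 6 in S3. Ins1, Gcg, Sst, Ppy and Iapp were at 0 reads in all 4 libraries, and Ins2, an insulin gene, had 1 read in S3 and 0 elsewhere. In such bulk RNA, fewer cells of a type and less RNA per cell cannot be told apart.

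Vgf, Chga and Scg5 were highest in S1, lower in S2 and at a level in between in S3, while Cpe, abundant from the start, was higher at each later stage. Over all 10 members the summed level was 233, 426, 494 and 566 CPM in S0 to S3, most of it Cpe. Summed over the 9 members other than Cpe, the level was 3.63 CPM in S0 (2.94 to 4.43), 136 CPM in S1 (132 to 141), 31.0 CPM in S2 (28.7 to 33.4) and 65.8 CPM in S3 (62.5 to 69.2). Vgf supplied most of that sum, with 3271 of the 3958 reads in S1. Of the 6 measured members, 4 (Vgf, Chga, Scg2 and Scg5) had their highest level in S1 and 2 (Pcsk1n and Cpe) in S3, and Scg2 passed the filter through S1 alone. Among all measured genes, 27.9% were highest in S1, 20.6% in S3, 31.3% in S0 and 20.2% in S2. The order S1, S3, S2, S0 from high to low was shown by Vgf, Chga and Scg5, and by 5.89% of measured genes.

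**Figure D1:**
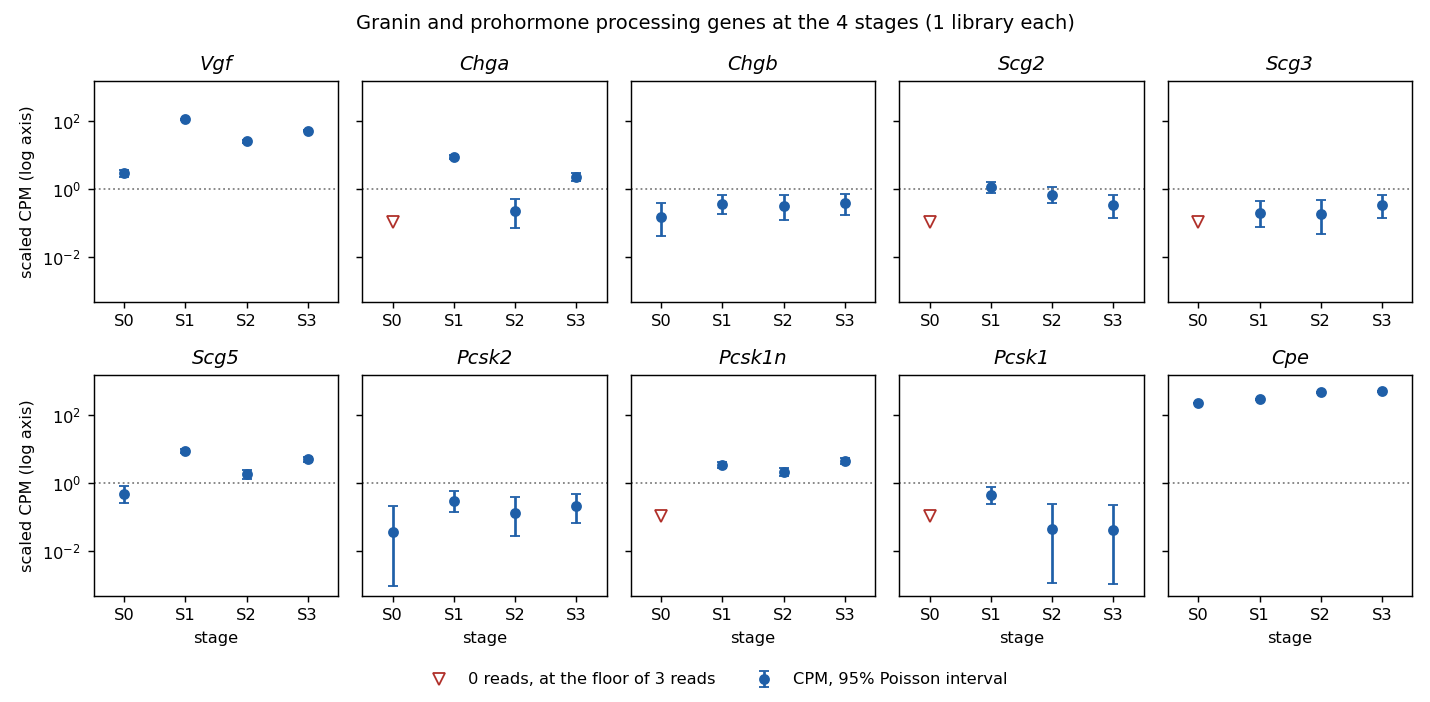
Scaled CPM (log axis) of each of the 10 members at stages S0 to S3, with 95% Poisson intervals as bars, 1 library per stage. Open triangles mark libraries with 0 reads, drawn at the level of 3 reads, and the dotted line marks 1 CPM. Vgf stood at 113 CPM in S1, against 2.96 CPM in S0, while Cpe was at 500.2 CPM in S3, against 229 CPM in S0, with no peak in S1.

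Vgf encodes a granin-like precursor that is cut into several secreted peptides. From S0 to S3 it had 79, 3271, 556 and 1232 reads, which is 2.96, 113, 25.3 and 52.6 CPM. The S1 library was the highest and S0 the lowest, with no overlap of the 4 intervals. Vgf was 38.1-fold higher in S1 than in S0 (30.5 to 48.2), 4.45-fold lower in S2 than in S1 (4.07 to 4.88) and 2.08-fold higher in S3 than in S2 (1.88 to 2.3), the last with an interval that reached below 2-fold. Its S3 level was 46.7% of its S1 level, and still 17.8-fold above S0 (14.2 to 22.6).

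Chga encodes chromogranin A, the classical marker protein of endocrine granules. It had 0, 256, 5 and 53 reads in S0 to S3, or 8.82 CPM in S1, 0.228 CPM in S2 and 2.26 CPM in S3. Of the measured members it had the highest ratio in S3 over S2 and the lowest in S2 over S1. It passed the filter through S1 and S3 alone, so its direction in both of these steps was fixed by the filter. Its S1 over S0 value is a lower bound, as are those of Pcsk1n and Scg2, so these cannot be ordered. It was at least 78.5-fold higher in S1 than in S0, 38.7-fold lower in S2 than in S1 (16.4 to 120) and 9.94-fold higher in S3 than in S2 (4.0 to 31.9). The level in S2 was 2.58% of that in S1, and the level in S3 was 25.7% of it.

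The related granins stayed low. Chgb, encoding chromogranin B, had 4, 11, 7 and 9 reads in S0 to S3, and all 4 of its intervals overlapped, with a ratio of 2.53 for S1 over S0 (0.75 to 10.9). Scg3, whose product binds chromogranin A and anchors it to granule membranes, had 0, 6, 4 and 8 reads in the same order. At these depths no stage of Chgb or Scg3 could be set apart beyond 2-fold from another. Scg2, the precursor of the peptide secretoneurin, had 0, 33, 15 and 8 reads along the stages. Its count was highest in S1 and lower at each later stage, whereas Chga and Vgf had more reads in S3 than in S2. It was at least 10.1-fold higher in S1 than in S0, and its ratio of S3 over S2 was 2.0-fold lower (0.796 to 5.45), an interval that spans no change. Scg2 passed the filter through S1 alone (1.14 CPM), so its direction against S1 was fixed by the filter.

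Both granule convertases were close to the limit of detection. Pcsk1 had 0, 13, 1 and 1 reads in S0 to S3, so the S1 library held nearly all of its reads. The ratio for S1 over S0 was at least 3.99-fold, and that for S2 over S1 was 9.83-fold lower (1.48 to 418). Pcsk2 had 1, 9, 3 and 5 reads in S0 to S3, with a ratio of 8.28 for S1 over S0 (1.15 to 363). No Pcsk2 interval lay beyond 2-fold in any of the 5 comparisons. A long non-coding RNA, Pcsk2os1, overlaps Pcsk2 in the RefSeq annotation and had 0, 20, 1 and 0 reads in the same order. Whether the counting used the strand is not given in the sources used here, so the few reads of Pcsk2 and Pcsk2os1 may be divided between them uncertainly.

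The partner proteins of these convertases were better measured than the convertases. Scg5 encodes a small granule protein that chaperones the Pcsk2 enzyme and inhibits it until it matures. Scg5 had 13, 258, 41 and 119 reads in S0 to S3, or 0.487, 8.89, 1.87 and 5.08 CPM. Its 4 intervals did not overlap, and their order from high to low was S1, S3, S2 and S0. It was 18.3-fold higher in S1 than in S0 (10.5 to 34.8) and 4.76-fold lower in S2 than in S1 (3.41 to 6.79), and its ratio of S3 over S2 was 2.72-fold higher (1.89 to 3.98). The S3 level of Scg5 was 57.2% of the S1 level. Pcsk1n encodes proSAAS, a granin-like protein that inhibits the Pcsk1 enzyme. Pcsk1n had 0, 101, 48 and 106 reads in S0 to S3, or 3.48 CPM in S1, 2.19 CPM in S2 and 4.53 CPM in S3. In contrast to Vgf, Chga and Scg5 its highest level was in S3, at 130% of S1, with S1 and S3 intervals that overlapped. Relative to S0, Pcsk1n was at least 31.0-fold higher in S1, at least 19.5-fold in S2 and at least 40.3-fold in S3. Pcsk1n overlaps Eras in the RefSeq annotation, and Eras had 0 reads in all 4 libraries.

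Cpe had 6124, 8401, 10176 and 11716 reads in S0 to S3, or 229, 289, 463 and 500.2 CPM. Each stage was above the one before it by more than counting error, under each of the 3 scalings tried. Cpe was 1.26-fold higher in S1 than in S0 (1.22 to 1.3), 1.6-fold higher in S2 than in S1 (1.56 to 1.65) and 1.08-fold higher in S3 than in S2 (1.05 to 1.11). No single step passed 2-fold, whereas the whole course did, with S3 2.18-fold above S0 (2.11 to 2.25). The other 9 members supplied 1.56%, 32.0%, 6.26% and 11.6% of all member reads in S0 to S3, and Cpe supplied the rest. Carboxypeptidase D, encoded by Cpd, does a like trimming in the constitutive route, and its reads numbered 15816, 21927, 25154 and 30122 in S0 to S3. The profile of Cpd was the second nearest to that of Cpe among 15060 genes. Per gene length the ratio of Cpe to Cpd in RPKM was 1.47 in S0 (1.43 to 1.52), 1.46 in S1 (1.42 to 1.5), 1.54 in S2 (1.51 to 1.58) and 1.48 in S3 (1.45 to 1.51).

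On the per-length scale of the deposited RPKM values, Cpe led in every library and Vgf and Scg5 followed it in that order. Cpe stood at 38.5, 54.7, 77.4 and 85.1 RPKM in S0 to S3, which ranked it 543rd, 347th, 224th and 192nd among the protein-coding genes of each library. Vgf ranked 11603rd in S0, 1621st in S1, 6313th in S2 and 3814th in S3. The RPKM ratio of Cpe to Vgf was 105 in S0 (84.3 to 133), 3.49 in S1 (3.35 to 3.63), 24.9 in S2 (22.8 to 27.1) and 12.9 in S3 (12.2 to 13.7), so the gap between them was narrowest in S1. In S1 the order continued with Chga, Pcsk1n, Scg2 and Pcsk1, each apart from the next by more than counting error, while from Pcsk1 down to Chgb, Scg3 and Pcsk2 no gene was apart from the next. In S2 Scg5 and Pcsk1n were not apart (ratio 1.55, 0.997 to 2.4), and Chga lay among the lowest members. In S3 Pcsk1n was above Chga by a ratio of 1.72 (1.22 to 2.43).

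**Figure D2:**
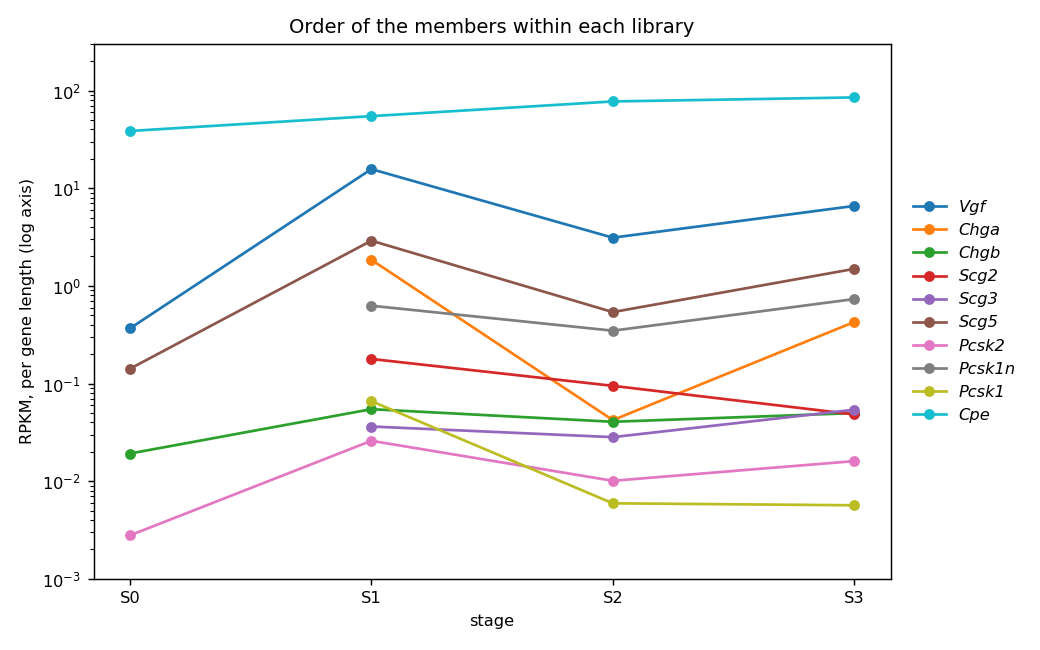
Deposited RPKM (log axis, per gene length) of the members at stages S0 to S3, 1 library per stage, with points joined per gene and libraries with 0 reads left blank. Cpe is on top throughout, from 38.5 RPKM in S0 to 85.1 RPKM in S3, Vgf and Scg5 come next, and Pcsk1 and Pcsk2 stay below 0.1 RPKM.

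Per gene length, RNA of each partner protein exceeded that of its convertase in S1, S2 and S3, whereas in S0 Pcsk1n and Pcsk1 were both at 0 reads. In S1 the RPKM ratio of Pcsk1n to Pcsk1 was 9.48 (5.3 to 18.4) and that of Scg5 to Pcsk2 was 112 (58.1 to 248). In S3 the ratio of Pcsk1n to Pcsk1 was 129 (22.7 to 5158), resting on 1 read of Pcsk1, and that of Scg5 to Pcsk2 was 93.1 (38.8 to 292). Furin, the convertase of the constitutive route, exceeded Pcsk1 per length by a ratio of 49.2 in S1 (28.7 to 92.6).

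The S1 over S0 comparison covers the step with both chromatin drugs, and Vgf, at 1 CPM or more in all 4 libraries, was 38.1-fold higher there. A gene was called when its whole interval lay beyond 2-fold. Of the 6 measured members, 5 (Vgf, Chga, Scg2, Scg5 and Pcsk1n) were called higher and 0 lower, against 12.6% higher and 13.1% lower of the 15222 measured genes, or 25.6% in either direction. The median log2 ratio over all genes was -0.03. By log2 ratio from the top, Vgf ranked 101st and Cpe 5285th of 15208 genes that had a ratio, and both reached 1 CPM in all 4 libraries. Chga, Scg2, Scg5 and Pcsk1n lay below 1 CPM in S0 and entered the comparison through later stages, Scg2 through S1 alone, so the count of higher members is partly fixed by the filter and is given as a description. Among the 4 members below the filter, Pcsk1 had an interval beyond 2-fold and Chgb, Scg3 and Pcsk2 did not.

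**Figure D3:**
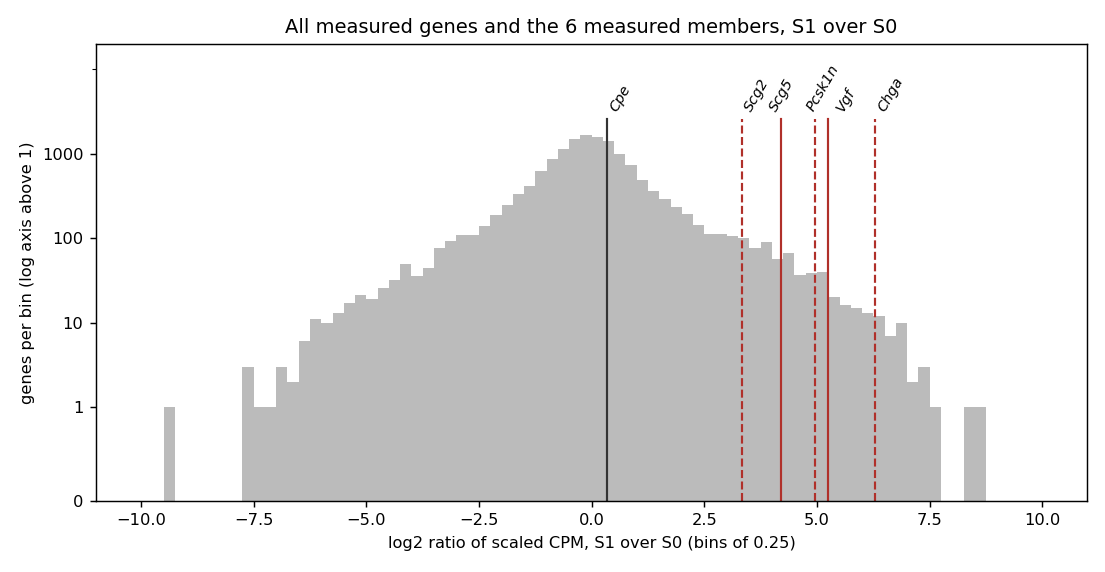
Number of genes per bin of the log2 ratio of scaled CPM, S1 over S0 (grey, count axis logarithmic above 1), with the 6 measured members as vertical lines, red where called higher and dashed where the value is a lower bound against 0 reads in S0. Chga (6.29), Vgf (5.25), Pcsk1n (4.95), Scg5 (4.19) and Scg2 (3.34) lie in the right tail, and Cpe (0.34) lies near the centre.

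Markers of neurons, which also use this granule machinery, were likewise highest in S1 as a sum. The 13 neuronal markers summed to 17.6 CPM in S0, 258 CPM in S1, 23.9 CPM in S2 and 32.0 CPM in S3, with all 13 carrying reads in S0, S1 and S3 and with Elavl4 and Rbfox3 at 0 in S2. Of the 13, 10 were measured, and all 10 were called higher in S1 than in S0 and lower in S2 than in S1, while 0 were called in S3 over S2. Over all genes, 12.6% were higher in S1 over S0 and 10.1% lower in S2 over S1. In S3 over S2 the shares were 3.69% higher and 1.14% lower. The direction of 5 of the 10 measured markers (Syt1, Snap25, Elavl3, Gap43 and Syp) was fixed by the filter, since they reached 1 CPM in S1 alone. Nefl, with 4 reads in S0, lay below 1 CPM there and entered through later stages. Nefm, Map2, Stmn2 and Tubb3 reached 1 CPM in S0 too. Syt1 and Snap25 also stand in the granule membrane list. The part of these markers in the granin levels was not tested. Markers of chromaffin and enteroendocrine cells summed to 31.0, 18.7, 57.6 and 38.5 CPM in S0 to S3, mostly from Cck and Slc18a2, and Pnmt was at 0 reads throughout. The 11 islet markers summed to at most 3.55 CPM, in S1, where Mafa, Pdx1 and Nkx6-1 were the 3 with reads.

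In S2 over S1, the retinoic acid step, 3 of the 6 measured members (Chga, Scg5 and Vgf) were called lower and 0 higher, against 10.1% lower and 6.71% higher of all measured genes, or 16.8% in either direction. With library size alone as the scaling, 27.1% of all called genes were higher in this comparison, against 39.8% with composition factors, and the same 3 members were lower under both. Pcsk1n was 1.59-fold lower (1.12 to 2.29) and Scg2 1.66-fold lower (0.879 to 3.3), neither beyond 2-fold. In S3 over S2, the nicotinamide step, Chga alone was called higher and 0 members lower, against 3.69% and 1.14% of all genes, or 4.83% in either direction. Chga reached 1 CPM in S1 and S3 alone, with 0.228 CPM in S2, so the filter fixed its direction in both steps. The counts of these steps are thus given as a description. Vgf, Scg5 and Pcsk1n had ratios of 2.08, 2.72 and 2.07 there, with lower bounds of 1.88, 1.89 and 1.46. By ratio from the top in this step Chga ranked 58th, Scg5 689th, Vgf 1156th and Pcsk1n 1168th of 15027 genes.

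Set against the starting culture, 4 measured members were called higher in S2 (Scg2, Scg5, Vgf and Pcsk1n) and 0 lower, against 9.05% and 11.5% of all genes, or 20.6% in either direction. Scg5 lost that call with DESeq2 size factors and with library size alone, at log2 ratios of 1.89 and 1.92 against 1.94, and from deposited RPKM Scg2 lost it and Cpe gained one. In S3, 5 were called higher (Chga, Scg5, Vgf, Pcsk1n and Cpe) and 0 lower, against 9.2% and 10.5% of all genes, or 19.7% in either direction. Chga, Scg2, Scg5 and Pcsk1n lay below 1 CPM in S0 and were measured only through later stages. The counts for S2 and S3 are thus partly fixed by the filter and are given as a description. The S3 value of Chga was at least 20.1-fold above S0, and that of Scg5 10.4-fold (5.88 to 20.2). Scg2, with 8 reads in S3, was not called, since its bound with counting error was 1.95-fold. These comparisons share the S0 library, and S1 and S2 are each shared between neighbouring steps, so they are not independent of each other.

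**Figure D4:**
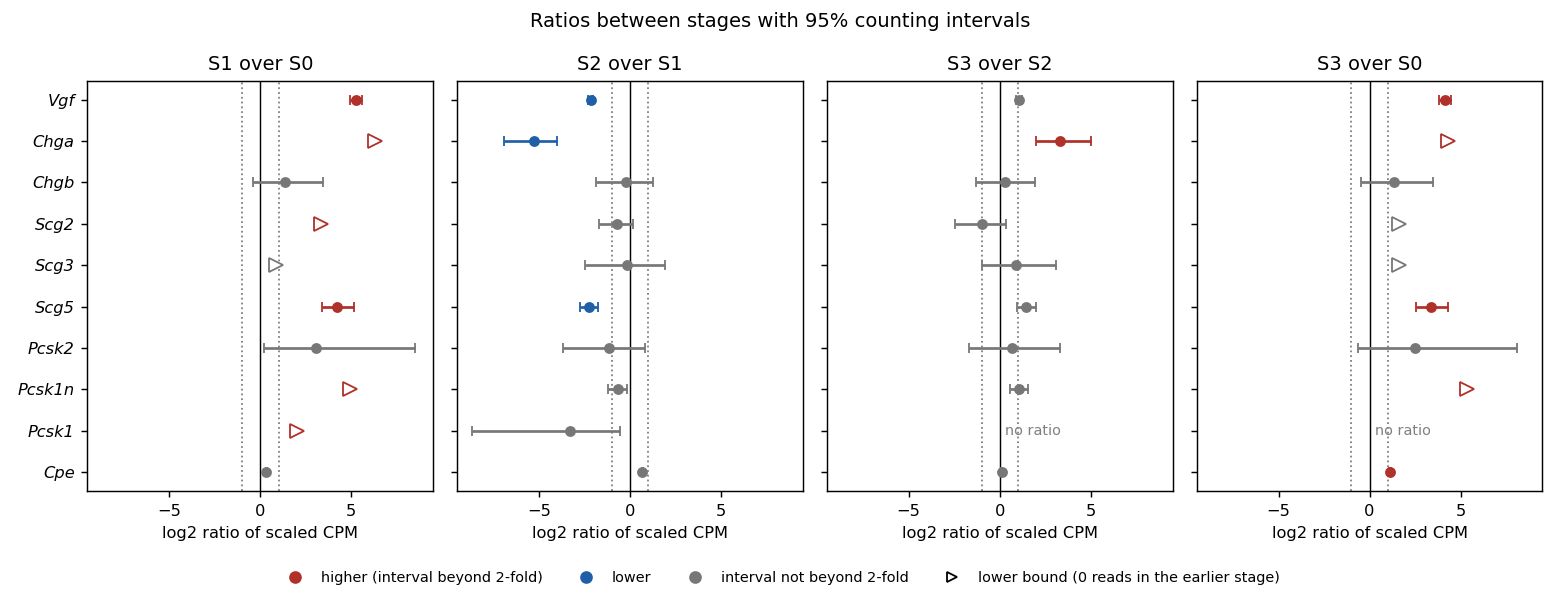
Log2 ratio of scaled CPM for the 10 members in 4 comparisons between stages, with 95% counting intervals, dotted lines at 2-fold and open triangles as lower bounds where the earlier library had 0 reads. Red marks members called higher and blue those called lower. In S1 over S0 Vgf lies at 5.25, in S2 over S1 at -2.15, in S3 over S2 at 1.05 and in S3 over S0 at 4.15.

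Granule membrane and exocytosis genes had the highest median in S1 over S0 among 5 other lists of the pathway. The list held 40 genes, of which 36 passed the filter, with 19 called higher and 1 called lower in S1 relative to S0, and with a median of 2.79-fold higher, against 0.976 over all genes. In S2 against S1, 13 were lower and 4 higher, and in S3 against S2, 1 was higher and 3 lower. These shares were 12.6% higher and 13.1% lower over all genes in the first step, 6.71% and 10.1% in the second, and 3.69% and 1.14% in the third. Of the 36, 8 reached 1 CPM in S1 alone, so their direction against S1 was fixed by the filter, and the 4 with the largest ratios were among them. The fusion protein gene Snap25 was 105-fold higher in S1 than in S0 (40.7 to 387), the calcium sensor gene Syt1 68.1-fold (26.3 to 251), Rab3c 50.6-fold (8.71 to 2034) and Ptprn2 35.0-fold (11.7 to 172). Ptprn, encoding a granule membrane protein known as an islet autoantigen, had 1948 reads in S1, against 641 in S0, and was 2.8-fold higher (2.56 to 3.06). Rab27a, a granule docking gene, was the lower member (3.48-fold, 2.81 to 4.35).

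Peptide precursors, the substrates of this machinery, were largely absent. Of 51 listed, 23 had at most 3 reads in every library and 16 were measured. In S1 against S0, 5 were higher and 2 lower (31.2% and 12.5% of the 16, against 12.6% and 13.1% of all genes), with a median of 2.11-fold higher. Nmu, the neuromedin U precursor gene, had 51 reads in S1 and 0 in S0 (at least 15.6-fold higher). Calca and Calcb, precursor genes of calcitonin and its related peptides, had 34 and 30 reads in S1, against 0 and 2 in S0. Npy, for neuropeptide Y, was 2.62-fold lower (2.12 to 3.27) and Cck, for cholecystokinin, 2.53-fold lower (2.19 to 2.93). In S2 against S1, 7 precursors were lower and 4 higher, against 10.1% lower and 6.71% higher of all genes, with Nmu at 0 reads in S2. Of the 16, 6 reached 1 CPM in S1 alone, Nmu, Calca and Calcb among them, which fixed their direction.

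**Figure D5:**
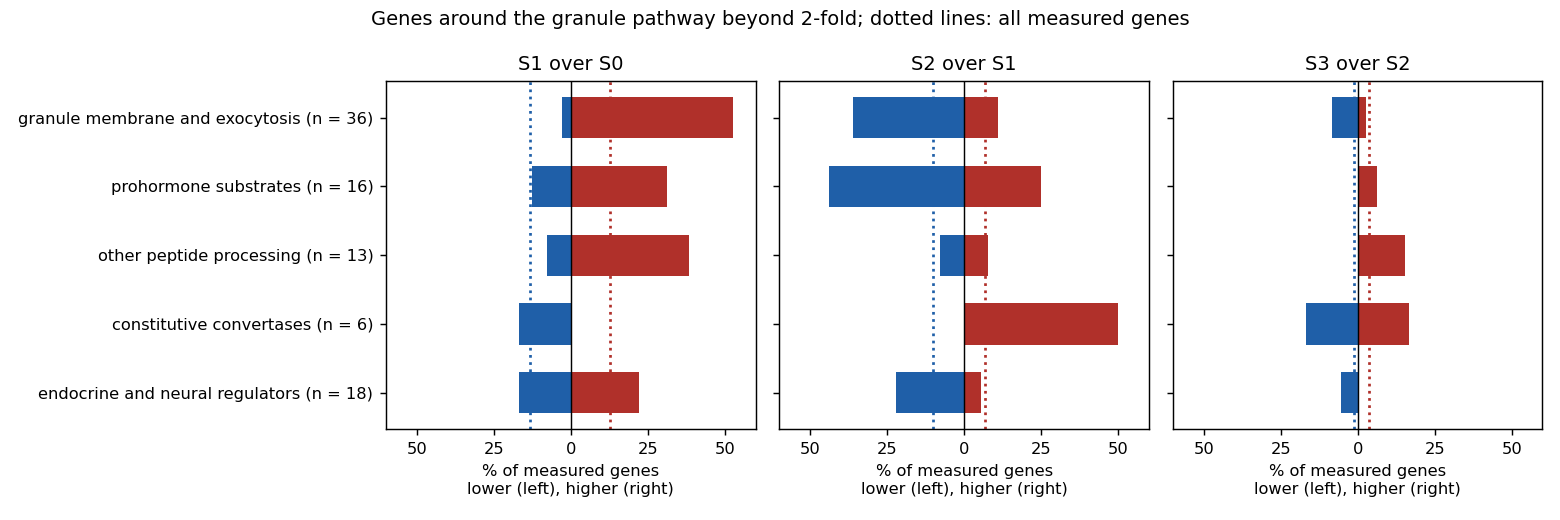
Percent of the measured genes of 5 lists around the granule pathway that were called higher (red, right) or lower (blue, left) in S1 over S0, S2 over S1 and S3 over S2. Dotted lines give the same percent over all 15222 measured genes. The granule membrane list reached 52.8% higher in S1 over S0 and 36.1% lower in S2 over S1, and the constitutive convertases had 50% higher in S2 over S1.

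Furin was lower in S1 than in S0 and higher in S2 than in S1. Of 7 listed constitutive convertases 6 were measured, of which 0 were higher and 1 lower in S1 than in S0, and the lower member was Furin, with 1370 reads in S1 and 2962 in S0 (2.35-fold lower, 2.2 to 2.51). In S2 against S1, 3 were higher and 0 lower, among them Furin (2.28-fold, 2.14 to 2.44) and Pcsk6 (2.1-fold, 2.0 to 2.19), the second of which was picked with its values in view. Over all genes the shares were 12.6% higher and 13.1% lower in S1 over S0, and 6.71% and 10.1% in S2 over S1. Of 13 measured genes for other peptide processing enzymes, 5 were higher and 1 lower in S1 than in S0. Among them were Enpep, glutamyl aminopeptidase (27.7-fold higher, 15.3 to 56.0), and Anpep, alanyl aminopeptidase (5.65-fold lower, 4.56 to 7.06). Enpep, with 11 reads in S0, lay below 1 CPM there and entered through later stages. Pam, the enzyme that amidates peptides in granules, had 6331, 7872, 7591 and 7923 reads in S0 to S3 and was 1.14-fold higher in S1 than in S0 (1.11 to 1.18).

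Of 32 listed regulators of endocrine and neural genes, 18 were measured, with 4 higher and 3 lower in S1 than in S0 (22.2% and 16.7%, near the 12.6% and 13.1% of all genes) and a median of 0.945. Rest, the repressor of neuronal genes that many granule genes carry sites for, had 3184, 2169, 3029 and 3464 reads in S0 to S3. It was lowest in S1, where it was 1.6-fold lower than in S0 (1.51 to 1.69), within 2-fold. Higher in S1 were Pax6 (24.2-fold, 7.99 to 120), Mnx1 (at least 17.8-fold), Mafa (14.7-fold, 5.48 to 55.7) and Rcor2, a corepressor of the REST complex (3.95-fold, 2.75 to 5.82). Mnx1 and Mafa reached 1 CPM in S1 alone, so their direction was fixed by the filter. Pax6, with 3 reads in S0, lay below 1 CPM there and entered the comparison through later stages. Insm1 and Neurod1, factors of endocrine cells, stayed at no more than 4 and 13 reads in any library.

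For each of the 6 measured members the genes with the nearest profile over the 4 libraries were found, by the root mean square difference between centred log2 values. Nearest to Chga were Dpysl5 (0.144), Steap4 (0.253) and Ramp3 (0.278), and Scg5 came 35th for Chga. For Vgf they were Ppp2r2c (0.153), Adgrb2 (0.415) and Acss2 (0.451), with Scg5 27th and Pcsk1n 40th. For Scg5 they were Prom1 (0.134), Acss3 (0.138) and E130309D14Rik (0.157). For Pcsk1n they were Cadm2 (0.0782), Abat (0.141) and an unannotated long non-coding transcript (0.152). For Scg2 they were Atl1 (0.0189), Sdk2 (0.0636) and Car8 (0.0639), and for Cpe they were Palm (0.0205), Cpd (0.0294) and Crot (0.0388). With 4 points per profile and 15060 candidate genes, such likeness is a description only.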

How the data were processed

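RNA was isolated with Trizol and sequenced on an Illumina machine after a stranded total RNA library kit, per the labels' protocols. The submitters' processing notes name the build mm9 and the tool bcl2fastq. For the aligner, the counting program, the annotation and the use of strand, the entry is: not given in the sources used here. The authors deposited whole-number read counts per gene and RPKM values (counts per gene length and library size), per the file headers. Both tables cover 30138 entries, and the ratio of count to RPKM differed between libraries by 1 factor each over genes with many reads.

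Counts were scaled to CPM by edgeR 4.0.16 (R 4.3.3), whose TMM factors were 0.968, 1.089, 0.957 and 0.991 for S0 to S3. Entries with at least 1 CPM in at least 1 of 4 libraries were measured. Ratios have exact 95% Clopper-Pearson intervals on the share of reads of both libraries, levels have exact Poisson intervals, and a call needs the whole interval beyond 2-fold. PCR reads without molecular identifiers are not independent molecules, so intervals and floors cover counting error only. Against 0 reads the ratio is a bound at a floor of 3 reads, and with at most 3 reads in both libraries none is given. Nearest profiles used log2(CPM + 0.5) and genes with at least 50 reads. Levels were compared between genes on the RPKM scale. From each other list the genes named were at most 4 per direction with the largest S1 over S0 ratios among those called, plus Rest, Pam, Furin, Ptprn, Ins1 and Ins2. Insm1, Neurod1, Cpd and Pcsk6 were named outside that rule, after their values were seen. The calculation of intervals and calls was checked on simulated Poisson counts. These hold counting error only, so the check says nothing about spread between cultures or libraries. DESeq2 1.42.0 gave alternative size factors. Python 3.11.15, scipy 1.17.1 and pandas 2.3.3 were used. Members, lists, the motifs and the rule for named genes were chosen with earlier results of these data known. Some genes of the lists are not reported here by name.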

Additional observations from a re-analysis of the deposited data

How the results depend on the processing

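No paired analysis was possible because each stage is a single library, and no library could be left out for the same reason. Between S3 and S2, the number of members called higher was 1, and it was 4 by point ratio (Chga, Scg5, Vgf and Pcsk1n) and 3 from deposited RPKM plus 0.1 (Chga, Scg5 and Vgf); an interval asks for more than a point, and the cause of the RPKM count was not tested. The other counts of members stayed within 1.5 times the reported count under DESeq2 size factors, library size alone, no filter, a minimum of 10 reads, point ratios, a 4-fold limit and RPKM. In S2 over S0, Scg5 lost its call with DESeq2 size factors and library size alone (log2 1.89 and 1.92, against 1.94), and from RPKM Cpe took the place of Scg2. The 4-fold limit removed Scg5 in S2 over S1 and S2 over S0 and Cpe in S3 over S0. Point ratios added Chga and Cpe in S2 over S0 and Scg2 in S3 over S0. Pcsk1 in S1 over S0 joined without the filter and at a minimum of 10 reads. Of 230 recomputed member ratios, 209 stayed within their interval, 21 moved beyond it and 0 of those called changed sign. Library size alone shifted the median of all genes by 0.18 in S1 over S0 and by -0.19 in S2 over S1 on the log2 scale. Depth limits Chgb, Scg3, Pcsk1 and Pcsk2, which had at most 13 reads in any library.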

Other observations

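Ramp3, a partner of the receptors for calcitonin-family peptides, was the third nearest profile to Chga, with 2, 239, 1 and 34 reads in S0 to S3. The precursor genes of that peptide family were measured in the same libraries. Calca had 0, 34, 2 and 1 reads and Calcb 2, 30, 4 and 3 reads in S0 to S3, while Adm, the adrenomedullin precursor gene, had 738, 661, 501 and 728 reads. Calca and Calcb reached 1 CPM in S1 alone, so their direction was fixed by the filter. Adm and the pairing of these genes were chosen after their values were seen, and no test of it was possible with 1 library per stage.

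Igf2, an insulin-like growth factor gene in the precursor list, had 90, 231, 50 and 710 reads in S0 to S3 and was 13.3-fold higher in S3 than in S2 (9.99 to 18.1). It was chosen after its values were seen.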
